A study of Heterocephalus glaber and Cavia porcellus and Spalacopus cyanus with 7 samples.

Results

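Heat shock protein and DNAJ chaperone genes were examined in oocytes of naked mole-rat and guinea pig. Members were taken by symbol, as every gene whose name starts with Hspa, Hspb, Hspd, Hspe, Hsph, Hsp90, Dnaja, Dnajb or Dnajc. This gave 72 genes, of which 70 had an entry among the 26623 entries of the naked mole-rat tables, 70 had one among the 25603 entries of the guinea pig table, and 68 had one in both. The rule also takes in Hspbp1, a nucleotide exchange factor of HSP70, and Hspbap1, a protein named for its binding to HSPB1, neither of which is a small heat shock protein. Hspe1, the mitochondrial co-chaperonin, and Hspa1b had no entry under these symbols in either table.

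The RNA came from fully grown and late growing oocytes of adult females. Guinea pig (Cavia porcellus) gave 1 library of the merged oocytes of 3 females aged 6 to 9 months. Naked mole-rat (Heterocephalus glaber) gave 5 libraries, each of 1 female, from females aged 1 to 8 years. The titles of naked mole-rat replicates 4 and 5 carry the letter O and those of replicates 2 and 3 the letter Y, and no source used here explains the letters. A further library of coruro (Spalacopus cyanus) was counted only on sequences of the Dnmt3 genes and gives no chaperone value. Cumulus cells had been removed by pipetting, ribosomal RNA was depleted, and the libraries were sequenced as 150 bp reads.

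Chaperones bind unfolded or partly folded proteins and help them to fold, to refold after stress or to be degraded. HSP70 proteins do so in cycles of ATP binding and hydrolysis. DNAJ proteins, also called HSP40, deliver clients and stimulate the hydrolysis, and exchange factors such as the HSP110 proteins release the nucleotide. HSP90 takes up clients that are already partly folded, and small heat shock proteins hold unfolded proteins without using ATP. Some members are made in nearly all cells without stress, such as Hspa8 and Hsp90ab1. Others, such as Hspa1a, Hspb1 and Dnajb1, are induced by heat shock factor 1. A fully grown oocyte is nearly silent in transcription and depends on stored mRNA and protein.

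Counts assigned to genes totalled 24515642 in guinea pig and 13512223 to 29561451 in the naked mole-rat libraries, and levels are given as counts per 1000000 of these totals (CPM). A count of 0 allows up to 3 counts, which is 0.122 CPM in guinea pig and 0.101 to 0.222 CPM in naked mole-rat. These limits, and the intervals below, cover counting error only. CPM still holds transcript length, which was not used here, so a difference of CPM between genes is one of reads and not of transcripts. Oocyte markers were strong in both species, with a summed level over the 12 of 15 listed genes that have an entry of 8715 CPM in guinea pig and 3604 to 9016 CPM in naked mole-rat. Naked mole-rat replicate 1 was the lowest of these, and it stood apart from the other libraries. Granulosa and cumulus markers summed to 836 CPM in guinea pig, against 7018 CPM in replicate 1 and 1032 to 2134 CPM in replicates 2 to 5, and 16 of 18 such genes with enough counts were highest in replicate 1 of the females. Immediate early genes reached a sum of 180.1 CPM in guinea pig, against 898 CPM in replicate 1 and 206 to 379 CPM in replicates 2 to 5. Replicate 1 was thus the highest library in both lists. Guinea pig was high in stroma and theca markers, with a sum of 383 CPM, against 216 CPM in naked mole-rat replicate 1 and 4.47 to 44.0 CPM in replicates 2 to 5, and in endothelial markers, with 591 CPM against 107 to 279 CPM in naked mole-rat. In such pooled samples more cells of a type and more RNA per cell cannot be told apart. Replicate 1 also comes in a table of its own, so that the table and the animal cannot be told apart.

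In guinea pig 60 of 70 chaperone genes (85.7%) reached 1 CPM, against 51.3% of all entries. In naked mole-rat 54 of 70 (77.1%) reached 1 CPM in every library, against 41.6% of all entries. A level of 100 CPM was reached by 25 genes in guinea pig and, in every library, by 14 genes in naked mole-rat, and 13 genes were among both. The summed level of all members was 9551 CPM in guinea pig and 10666, 10085, 9889, 10733 and 9720 CPM in naked mole-rat replicates 1 to 5. The sum had a mean of 10219 ± 458 CPM over the females (SD, n = 5). A sum over many genes evens out their separate changes, so its small spread says little of single members. It also hid a shift between members in replicate 1. There Hspa8, Hsp90aa1, Hsp90ab1, Hsp90b1 and Hspa5 took 57.4% of all chaperone counts, against 48.0 to 50.5% in replicates 2 to 5. All remaining members together were lowest in replicate 1, at 4541 CPM, while replicates 2 to 5 had 4809 to 5451 CPM. Over the 57 members with at least 100 counts in total, the median coefficient of variation was 30.9%. Over all 14471 such entries it was 44.9%.

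**Figure D1:**
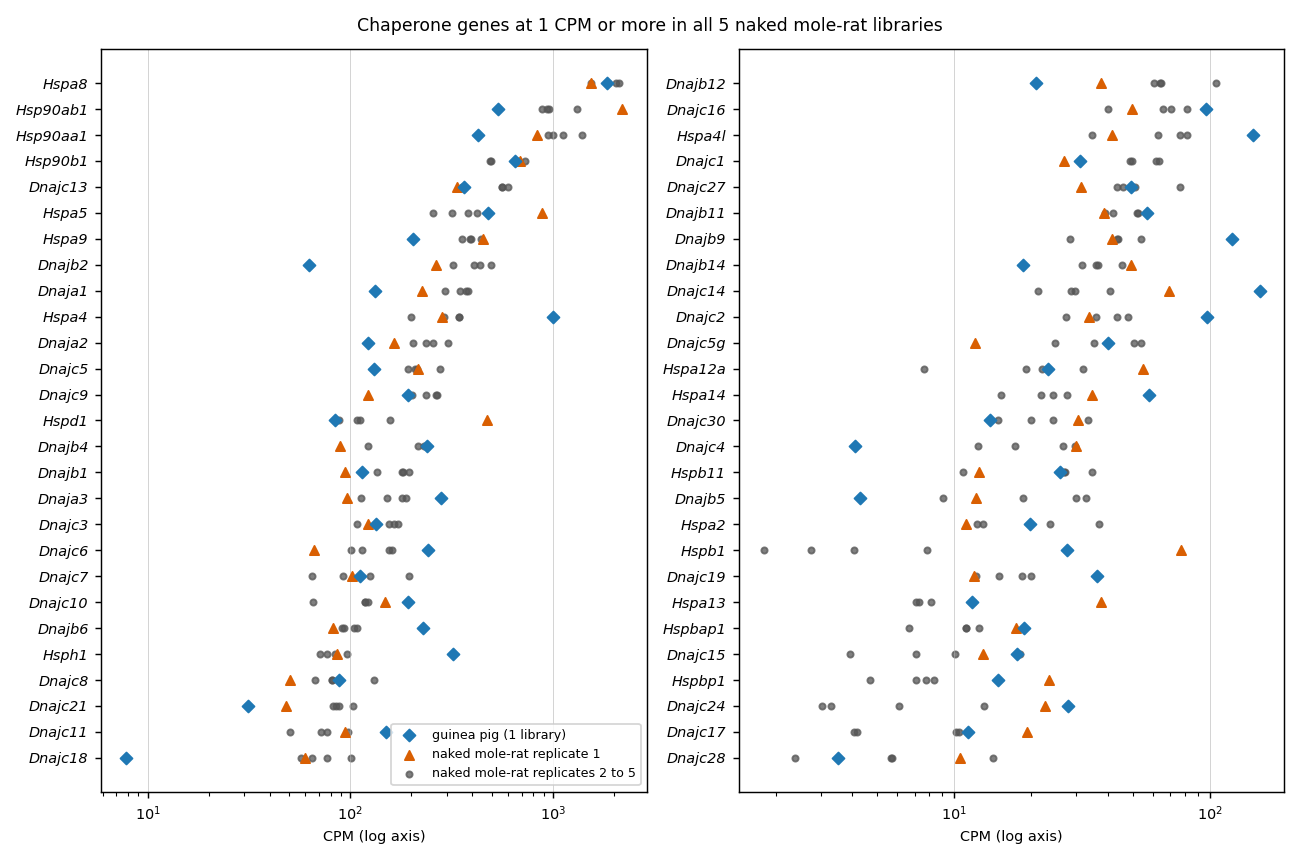
CPM on a log axis of the 54 chaperone genes at or above 1 CPM in all 5 naked mole-rat libraries, sorted by their naked mole-rat mean, with the guinea pig library as diamonds, naked mole-rat replicate 1 as triangles and replicates 2 to 5 as dots. For Hspb1, Hspd1, Hspa5 and Hspa13 the triangle lies far to the right of the dots, and for Hspa4 and Hsph1 the diamond lies to the right of every naked mole-rat library.

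Hspa8, the constitutive cytosolic HSP70, was the member with the most reads in guinea pig and in naked mole-rat replicates 2 to 5. In replicate 1 Hsp90ab1 had more, at 2193 CPM. Hspa8 had 1857 CPM in guinea pig, against 1542, 2108, 2054, 1864 and 1546 CPM in naked mole-rat replicates 1 to 5. The guinea pig value lay within the range of the females, and Hspa8 ranked 18 among all entries by CPM both in guinea pig and by its naked mole-rat mean of 1823 ± 270 CPM (SD, n = 5). Hspa8 took 19.4% of all chaperone counts in guinea pig and 14.5 to 20.9% in naked mole-rat. Hspa2, an HSP70 known for its role in mouse spermatogenesis, had 19.7 CPM in guinea pig and 19.4 ± 11.1 CPM in naked mole-rat (SD, n = 5).

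Of the stress-inducible HSP70 genes, Hspa6 was nearly silent in naked mole-rat. It had 6.73 CPM in guinea pig (165 counts), against 11, 41, 0, 24 and 9 counts in naked mole-rat replicates 1 to 5, or up to 1.503 CPM. Hspa1a has no entry under its symbol. One naked mole-rat entry, named only as a locus, has the gene ID that RefSeq (H.glaber_assembly_v1.0) gives to Hspa1a, and it was read as that gene, although the rule does not take it. It had 205, 218, 102, 156 and 283 CPM in replicates 1 to 5, from 1414 to 8361 counts. This entry thus had many reads in each of these females, and replicate 5 was the highest of them. In that annotation Hspa1a lies inside the span of its germ cell relative Hspa1l, which had 4 counts in replicate 1 and 0 in the others. The sources used here do not say how reads that fit several HSP70 genes were counted, so single HSP70 values are uncertain to that extent. No guinea pig entry was matched to Hspa1a.

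The HSP110 proteins, which act as exchange factors of HSP70, were all higher in guinea pig than in every naked mole-rat library. Hspa4 had 1003 CPM in guinea pig (95% exact Poisson interval 990.3 to 1015), against 283, 289, 342, 343 and 199.9 CPM in naked mole-rat. Hsph1, its heat-inducible relative, had 319 CPM in guinea pig, against 85.8, 95.9, 76.6, 84.3 and 71.2 CPM in naked mole-rat. Hspa4l had 148 CPM in guinea pig, against 41.7, 63.1, 81.3, 76.3 and 34.8 CPM. The ratio of guinea pig to the naked mole-rat mean was 3.44 for Hspa4 and 3.86 for Hsph1, and neither reached 4-fold above the highest naked mole-rat library. These genes were grouped after their values were seen. A place above the naked mole-rat range was common, since it held for 3825 of the 10279 genes compared between species.

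The cytosolic HSP90 genes went the other way. Hsp90aa1, the inducible form, had 427 CPM in guinea pig, against 829, 1117, 999, 1384 and 946 CPM in naked mole-rat. Hsp90ab1, the constitutive form, had 533 CPM in guinea pig, against 2193, 886, 956, 939 and 1308 CPM in naked mole-rat. Guinea pig lay below all 5 females for both genes, as it did for 2991 of the 10279 genes compared between species. Replicate 1 had the lowest Hsp90aa1 and the highest Hsp90ab1 of the naked mole-rat libraries. Together these 2 genes took 10.05% of all chaperone counts in guinea pig and 19.8 to 28.3% in naked mole-rat. Hsp90b1, the form of the endoplasmic reticulum, had 646 CPM in guinea pig and 613 ± 114 CPM in naked mole-rat (SD, n = 5), and there the ranges overlapped.

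Small heat shock proteins contributed few reads. Of the 8 genes named Hspb with a number, Hspb2, Hspb3, Hspb7 and Hspb8 had 1, 0, 4 and 48 counts in guinea pig, against 0 counts in all 5 naked mole-rat libraries. The 48 counts are 1.96 CPM of Hspb8, a partner of the co-chaperone Bag3. Hspb1, an inducible holdase, had 27.6 CPM in guinea pig, against 77.5 CPM in replicate 1 and 1.80, 2.75, 7.85 and 4.06 CPM in replicates 2 to 5. Its naked mole-rat mean rests on replicate 1, since it was 18.8 CPM over 5 libraries and 4.11 CPM without that one. Hspb11, counted among the 8 by its name but now known as an intraflagellar transport protein, was measured in all libraries. It had 26.02 CPM in guinea pig and 22.5 ± 10.4 CPM in naked mole-rat (SD, n = 5).

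In the endoplasmic reticulum, Hspa5 (BiP) is the main HSP70. It had 476 CPM in guinea pig, against 878, 318, 255, 422 and 382 CPM in naked mole-rat. Hspa13, a microsomal HSP70, had 11.7 CPM in guinea pig, against 37.6, 8.14, 7.10, 11.9 and 7.31 CPM. In both genes replicate 1 alone was high. The DNAJ proteins that serve Hspa5 did not follow it as a group: Dnajb9, Dnajb11 and Dnajc3 had 41.6, 38.7 and 122 CPM in replicate 1, against 28.4 to 54.1, 38.8 to 52.5 and 108 to 171 CPM in the others. Dnajc10, a reductase with a J domain, was highest in replicate 1 at 149 CPM, against 65.5 to 122 CPM. Of the 13 genes listed for this compartment, 12 reached 1 CPM in every naked mole-rat library, and the exception was Dnajc25, with 0 counts in replicate 3.

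Among mitochondrial chaperones, Hspa9 (mortalin) had the lowest coefficient of variation of the 57 members with at least 100 counts. It had 204 CPM in guinea pig, against 451, 396, 388, 442 and 356 CPM in naked mole-rat, and the coefficient over the 5 females was 9.74%. Hspd1, the HSP60 chaperonin, had 84.2 CPM in guinea pig, against 471 CPM in replicate 1 and 88.3, 108, 157 and 111 CPM in replicates 2 to 5. Guinea pig was below every naked mole-rat library for both. Dnaja3, the DNAJ partner of Hspa9, had 281 CPM in guinea pig, against 96.7, 151, 113, 180 and 189 CPM in naked mole-rat, so that it lay above the range while Hspa9 lay below it. Without replicate 1, the naked mole-rat mean of Hspd1 was 116 CPM over 4 libraries, against 187 ± 161 CPM over 5 (SD). All 9 genes listed for mitochondria with an entry reached 1 CPM in every naked mole-rat library, and the lowest was Dnajc28 at 2.39 to 14.2 CPM.

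The DNAJA and DNAJB genes hold the cytosolic partners of HSP70. Dnaja1 had 132 CPM in guinea pig, against 224, 349, 373, 382 and 293 CPM in naked mole-rat. Dnaja2 had 122 CPM in guinea pig, against 164, 257, 236, 303 and 204 CPM. Guinea pig was below all females for both, and replicate 1 was the lowest female. Dnajb1, the heat-inducible DNAJB, had 114 CPM in guinea pig, against 94.0, 183, 136, 179.6 and 194 CPM, and here the guinea pig value lay within the range. Dnajb6, which restrains protein aggregation, had 227 CPM in guinea pig and 82.1 to 108 CPM in naked mole-rat, while Dnajb4 had 239 CPM in guinea pig and 88.7 to 239.9 CPM. Summed over the DNAJB genes, replicate 1 was the lowest of the naked mole-rat libraries, with 710 CPM against 1067 to 1158 CPM.

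DNAJC genes are the most varied in domain structure and role. Dnajc13, which acts in endosomal sorting, was the DNAJC gene with the most reads, with 363 CPM in guinea pig and 336, 563, 600.3, 558 and 356 CPM in naked mole-rat. Dnajc5, a cysteine string protein of secretory vesicles, had 130 CPM in guinea pig and 192 to 277 CPM in naked mole-rat. Dnajc6 (auxilin), which uncoats clathrin vesicles, had 243 CPM in guinea pig and 66.2 to 161 CPM in naked mole-rat. Guinea pig thus lay within the naked mole-rat range for Dnajc13, below it for Dnajc5 and above it for Dnajc6. Of the nuclear and RNA group, Dnajc9, a histone chaperone, had 192 CPM in guinea pig and 218 ± 60.0 CPM in naked mole-rat (SD, n = 5), and Dnajc21, a ribosome biogenesis factor, had 31.2 CPM in guinea pig and 81.2 ± 19.96 CPM in naked mole-rat. Dnajc17 and Dnajc24 were the lowest of the 6 genes put on the list of that group in naked mole-rat, with 4.07 to 19.3 CPM and 3.04 to 22.6 CPM. The list is a grouping made here and does not show where Dnajc24 acts. Dnajc5g had 39.9 CPM in guinea pig and 12.1 to 53.7 CPM in naked mole-rat, with replicate 1 lowest, while its relative Dnajc5b had 3 counts in replicate 1 and 0 in every other library, guinea pig included.

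Some members gave little or no signal. In guinea pig, Dnajb7, Dnajb8, Dnajc22, Dnajc5b and Hspb3 had 0 counts, and Hspa12b and Dnajb13, which are expressed in endothelium and in sperm, had 76 and 63 counts. In naked mole-rat 5 genes had 0 counts in all libraries: Hspb2, Hspb3, Hspb7, Hspb8 and Dnajb8. A further 11 had counts but fell under 1 CPM in at least 1 library, namely Dnajc25, Dnajc22, Hspb6, Hspa6, Dnaja4, Dnajc12, Hspa12b, Hspa1l, Dnajb13, Dnajc5b and Hspb9. Of these 11, 5 had no counts in naked mole-rat outside replicate 1: Dnaja4 (25 counts), Hspa12b (15), Hspa1l (4), Dnajc5b (3) and Hspb9 (1).

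The inducible genes were set against constitutive partners within each library, where depth cancels. These are ratios of counts, so their size holds the transcript lengths, and only their change between libraries of the same species is read. The ratio of Hspa1a to Hspa8 was 0.133, 0.103, 0.0499, 0.0837 and 0.183 in naked mole-rat replicates 1 to 5, the highest being 3.67-fold the lowest. That of Hsp90aa1 to Hsp90ab1 was 0.800 in guinea pig (95% interval 0.780 to 0.821), against 0.378, 1.26, 1.04, 1.474 and 0.723 in naked mole-rat, the highest being 3.90-fold the lowest. The Hsph1 to Hspa4 ratio was 0.318 in guinea pig (0.310 to 0.327), against 0.303, 0.332, 0.224, 0.246 and 0.356 in naked mole-rat. The Dnajb1 to Dnaja2 ratio was 0.935 in guinea pig (0.887 to 0.984), against 0.574, 0.711, 0.575, 0.594 and 0.950 in naked mole-rat. All 3 guinea pig ratios lay within the range of the females. Lengths and mappability differ between the genomes, so this does not show that the ratios are alike in the species. Replicate 5 had the highest ratio of inducible to constitutive gene for Hspa1a, Hsph1 and Dnajb1 but not for Hsp90aa1, for which replicate 1 was lowest. The levels of Hspa1a (283 CPM) and Dnajb1 (194 CPM) were also highest in replicate 5. Hsph1 itself was lowest there, at 71.2 CPM, and its ratio was high because Hspa4 was lowest there too, at 199.9 CPM. The inducible genes, Hspa1a included, summed to 1292, 1616, 1316, 1813 and 1498 CPM in naked mole-rat, and the 6 constitutive genes to 4508, 3980, 4025, 3954 and 3745 CPM. Guinea pig had 896 and 3758 CPM for these lists, its inducible sum without Hspa1a, which in naked mole-rat was 1087 to 1656 CPM without that gene. Hsp90aa1 gave the largest part of the inducible sums, with 427 CPM in guinea pig and 829 to 1384 CPM in naked mole-rat. The lower guinea pig sum thus does not hold for the list gene by gene. Of the 5 inducible genes compared, guinea pig lay above the naked mole-rat range for 2, within it for 2 and below it for 1, Hsp90aa1. No test was made on the ratios, since a ratio of 1 has no meaning without the lengths.

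**Figure D2:**
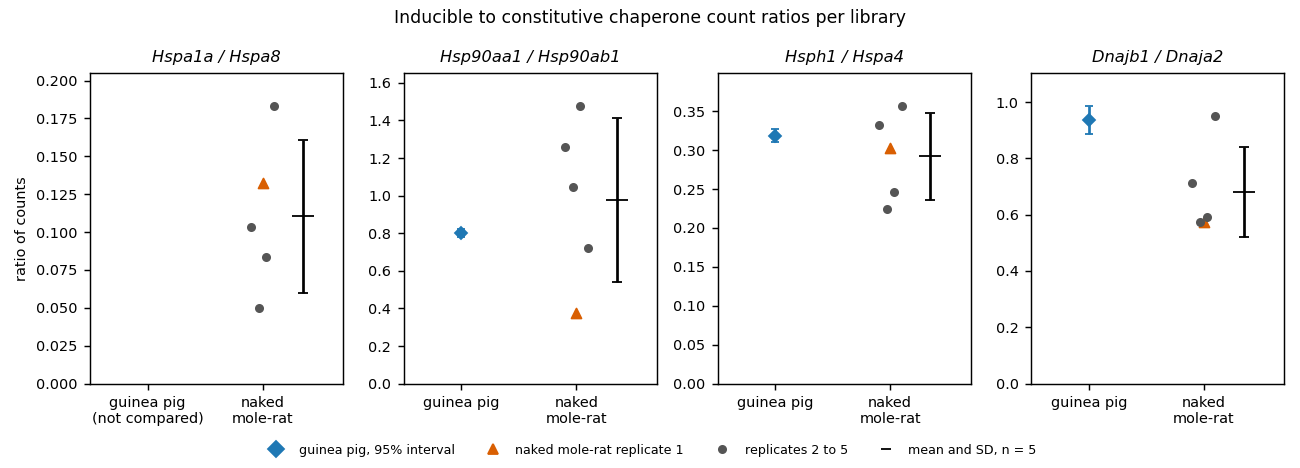
Ratio of counts of an inducible to a constitutive chaperone gene in guinea pig (diamond, 95% exact interval for counting error) and in the naked mole-rat libraries (triangle for replicate 1, dots for replicates 2 to 5, bar for the mean with SD over 5). Guinea pig lies within the spread of the females in the 3 pairs compared, and the Hsp90aa1 to Hsp90ab1 ratio of replicate 1, at 0.378, lies below all other libraries.

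Levels in replicate 1 were set against those of the other females, for the members and for all entries. Of the 57 members with at least 100 counts in total, 18 had their highest level in replicate 1, against 42.3% of the 14471 entries so tested, and 21 had their lowest level there, against 24.3% of entries. The median log2 ratio of replicate 1 to the mean of the other libraries was -0.20 over the members and 0.22 over all entries. For 5 of these 57 members replicate 1 stood apart as highest, its gap to the nearest library exceeding 0.71 of the whole range, against 14.4% of entries. These were Hspb1, Hspa13, Hspd1, Hspbp1 and Hspa5, with 18.8-fold, 4.37-fold, 4.06-fold, 3.37-fold and 2.55-fold the mean of the others. Replicate 1 was also the highest in immediate early genes such as Fos (75.9 CPM in replicate 1, 0.110 to 5.48 CPM in the others) and granulosa markers such as Amh (1203 CPM, against 6.99 to 66.5 CPM), and the part of other cells in the level of Hspb1 was not tested. Other inducible genes were not highest in replicate 1: Dnajb1 was lowest there, at 94.0 CPM, and Hsph1, Hspa1a and Hsp90aa1 were higher in at least 1 other female. When libraries were scaled by TMM factors instead of totals, which lowers replicate 1 by 0.35 on the log2 scale against the mean of the others, 13 of 57 members were highest in it, against 34.6% of entries.

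**Figure D3:**
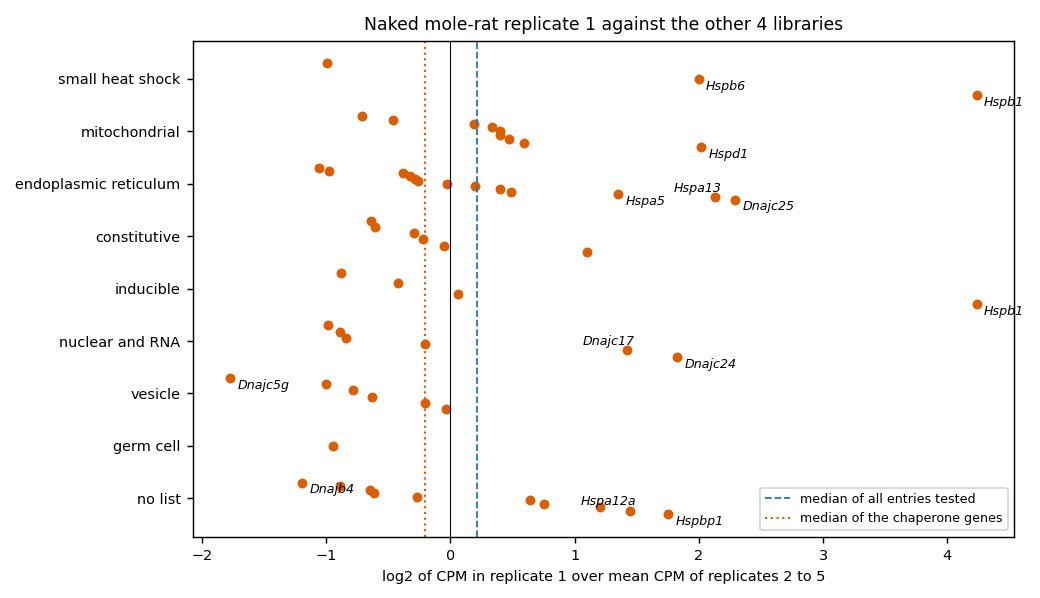
Log2 ratio of the CPM in naked mole-rat replicate 1 to the mean of replicates 2 to 5 for the 57 chaperone genes with at least 100 counts in total, by list. A gene of 2 lists is drawn in both, the dashed line is the median of all entries (0.22) and the dotted line that of the chaperone genes (-0.20). Hspb1, Dnajc25, Hspa13, Hspd1 and Hspb6 lie farthest to the right, and the vesicle genes lie to the left of 0.

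Between species, 55 members could be compared, those with an entry in both tables and a sufficient count, which was 100 in the guinea pig library or in each naked mole-rat library. With 1 guinea pig library there is no test, and a gene was called where guinea pig was 4-fold above the highest or 4-fold below the lowest naked mole-rat library. Of the 55, 2 were called higher, against 8.95% of the 10279 genes compared, and 2 were called lower, against 8.35%. The 2 higher calls are no support for a difference of the members, since both genes entered through the guinea pig library alone, where they are high, as did 7 of the 55. Of the 48 members with 100 counts in guinea pig and in each naked mole-rat library, 0 were called higher and 2 lower, against 3.26% and 4.72% of the 6992 genes that met both minimums. Guinea pig lay above the naked mole-rat range for 19 members, within it for 21 and below it for 15. Among all 10279 genes compared it lay above the range for 3825 and below it for 2991. Of these genes 33.7% lay within the range, and 38.2% of the members did. The median log2 ratio of guinea pig to the naked mole-rat mean was 0.08 over the members and 0.12 over all genes. These calls are too few to set the chaperone genes apart from genes in general.

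The 2 genes called higher were Dnajc12, a cytosolic DNAJ that binds aromatic amino acid hydroxylases, and Hspa6. Dnajc12 had 133 counts or 5.43 CPM in guinea pig (95% exact Poisson interval 4.54 to 6.43), against 7, 0, 0, 27 and 0 counts in naked mole-rat, and it was 5.63-fold above the highest female. Hspa6 was 4.48-fold above the highest female. No naked mole-rat library reached 100 counts for either gene, so that both were compared only because they are high in guinea pig, and the size of the ratio rests on few counts. The 2 called lower were well measured in both species. Dnajc18, a DNAJ of the endoplasmic reticulum membrane, had 192 counts or 7.83 CPM in guinea pig (6.76 to 9.02), against 59.9, 101, 77.1, 57.3 and 65.0 CPM in naked mole-rat, and the lowest female was 7.31-fold higher. Dnajb2, which sorts ubiquitinated clients to the proteasome, had 62.6 CPM in guinea pig (59.5 to 65.8), against 266, 409, 436, 322 and 496 CPM in naked mole-rat, and the lowest female was 4.25-fold higher. Under TMM factors Hspa6 and Dnajb2 were no longer past 4-fold. At a 2-fold limit 8 members were called higher, Hspa4, Hsph1, Dnajb6, Dnajb9, Dnajc2 and Dnajc14 joining, and 4 lower, Dnajc4 and Dnajb5 joining, against 18.5% and 15.1% of all genes. Transcript models, lengths and mappability differ between the 2 genomes, and their part in these differences, like that of the stroma and endothelial markers that were high in guinea pig, was not tested.

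**Figure D4:**
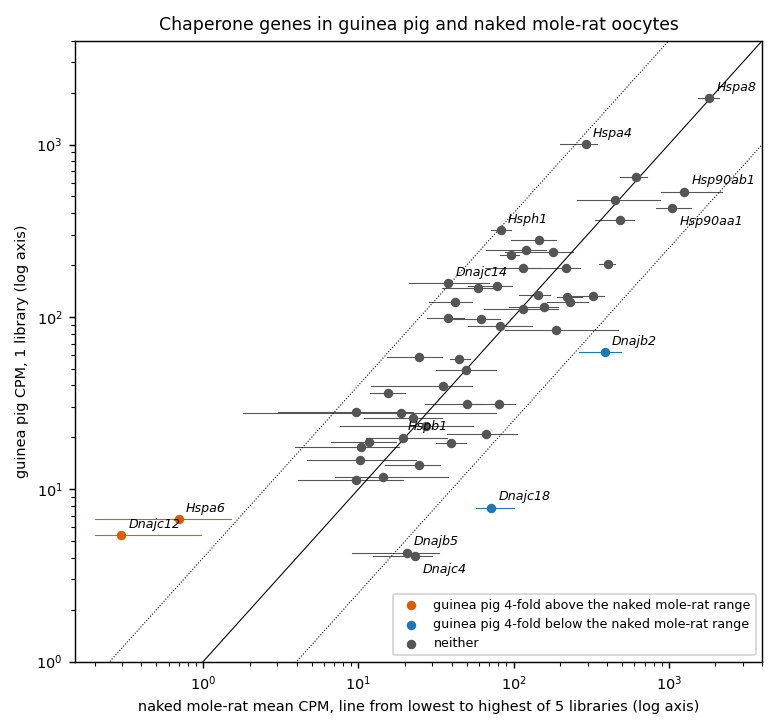
Guinea pig CPM (1 library, log axis) against naked mole-rat mean CPM (log axis) of the 55 chaperone genes compared, with a line from the lowest to the highest of 5 naked mole-rat libraries, libraries at 0 being drawn at 0.2 CPM. The solid line marks equal CPM and the dotted lines 4-fold differences from it, and Dnajc12, Hspa6, Dnajc18 and Dnajb2 (coloured) are the genes 4-fold outside the range of the females, while Dnajb5, Dnajc4 and Dnajc14 lie past a dotted line by their mean alone.

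Libraries labelled O and Y were compared as a description of labels whose meaning is unknown, with 2 libraries each. With edgeR's quasi-likelihood test and Benjamini-Hochberg adjustment over 15079 genes, 0 of 58 members tested and 0% of all genes had an adjusted p below 0.05. At an unadjusted p below 0.05 there was 1 member, against 4.69% of all genes, and DESeq2 called 0 members. That gene was Dnajc7, which holds clients between HSP70 and HSP90, with 124 and 194 CPM in the O libraries, against 91.9 and 64.7 CPM in the Y libraries (log2 difference 0.89 ± 0.37 SE, edgeR adjusted p = 0.9998). Of the 58 members 24 were higher and 34 lower in the O libraries, with a median log2 difference of -0.10, against 0.05 over all genes. The fitted log2 differences of the HSP90 genes were 0.03 ± 0.30 for Hsp90aa1, 0.16 ± 0.28 for Hsp90ab1 and 0.39 ± 0.28 for Hsp90b1 (SE), and none was called. Granulosa markers summed to 1272 and 2134 CPM in the O libraries and 1032 and 1221 CPM in the Y libraries, and their part was not tested. Without replicate 4, which leaves replicate 5 alone for O, 4 members were called, Dnajc7 higher and Hspa8, Dnajc13 and Dnajb4 lower, among 494 of 16209 genes called. The lone library is then assumed to vary like the others.

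Genes that work with these chaperones but are not members were taken from lists of regulators and co-chaperones and of the TRiC chaperonin. Of 28 regulators and co-chaperones, 27 had an entry in naked mole-rat and 26 reached 1 CPM in every library. Hsf1, the factor of the heat shock response, had 73.5 CPM in guinea pig and 60.6 ± 20.1 CPM in naked mole-rat (SD, n = 5), and Hsf2 had 92.8 CPM and 98.7 ± 21.4 CPM. Of 26 compared between species, 2 were called lower in guinea pig, against 8.35% of all genes compared. Trap1, the mitochondrial HSP90, had 34.5 CPM in guinea pig against 382 ± 129 CPM in naked mole-rat, and Bag2, a regulator of HSP70, had 1.84 CPM against 25.1 ± 7.12 CPM in naked mole-rat (SD, n = 5). Trap1 thus lay on the same side as Hspa9 and Hspd1, but the mitochondrial members did not share a side. Of the 8 compared, guinea pig lay below the naked mole-rat range for 4, above it for 3 and within it for 1. All 8 TRiC subunits reached 1 CPM in every naked mole-rat library, summing to 1037 to 1537 CPM there. Of the 7 compared, 1 was called lower in guinea pig, Cct6a, at 14.5 CPM against 85.0 ± 33.4 CPM. The calls among regulators and TRiC genes are too few to set these lists apart from genes in general. In the comparison of O with Y libraries 0 of the 26 regulators and 0 of the 8 TRiC genes passed an adjusted p of 0.05.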

How the data were processed

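Oocyte RNA was sequenced for 5 naked mole-rat libraries and 1 guinea pig library. Per the paper's methods and the submitters' processing notes, the authors trimmed reads with Trim Galore (0.6.1 in the notes), mapped them with HISAT2 (2.1.0 in the notes, the methods giving other versions of both tools) to HetGla_female_1.0 or Cavpor3.0, and quantified genes with SeqMonk. The deposited values are raw counts, and the treatment of reads with several matches was not given in the sources used here. From them CPM was computed on column totals. Members were found by symbol without case. The members, lists and tests were chosen with earlier results of these data known. Genes named by rule are those of the inducible and constitutive lists, the 10 with most reads, called genes, the highest and lowest of each list, genes at 0 and genes with a library that stands apart. Other members, such as Hspa4l, Dnaja3, Dnajc6 and Dnajc21, were named outside these rules with their values known. Species were compared without a test. For the calls, counts under 3 were set to 3 in each library, while levels, and ratios to a mean above 0, keep the naked mole-rat counts as deposited. O and Y libraries were compared with edgeR 4.0.16 (R 4.3.3; TMM, filterByExpr, adjusted p below 0.05). DESeq2 1.42.0 was tried too. On simulated data for this comparison, edgeR recovered 2 of 67 genes changed 2-fold, 27 of 67 changed 4-fold and 45 of 66 changed 8-fold among 15079 genes, with 3 false calls. No naked mole-rat libraries were duplicates (chi-square per gene 48.6 to 490). The labels call them replicates, and each came from a separate female. In the naked mole-rat tables, as in that of guinea pig, 26 entries have date-like symbols and were matched to no gene. No sequence or transcript length of a member was used. A planned test of the inducible to constitutive ratios needed coding lengths and was not run. A result among the regulators and co-chaperones is not reported here.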

Additional observations from a re-analysis of the deposited data

Results flagged for a closer look

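A library was looked at again where its gap to the nearest of the other naked mole-rat libraries exceeded 0.71 of the range of the 5, which chance gives for about 5% of genes. This held for 11 of the 65 members with a count (16.9%), 10 of them high in replicate 1 (15.4%). Over all 19834 naked mole-rat entries with a count the shares were 30.2% and 20.98%, so that the share among members was not above that of entries in general. With counts in several libraries these were Hspb1 (0.920), Hspa13 (0.843), Hspd1 (0.820), Hspbp1 (0.806) and Hspa5 (0.731). For Dnaja4, Dnajc5b, Hspa12b, Hspa1l and Hspb9 the value is 1, since the other 4 libraries had 0 counts. Dnajc5 (0.712) was high in replicate 5. Of summed levels, replicate 5 was apart as lowest for the HSP70 genes (0.800), with 2605 CPM against 3190 to 3337 CPM, replicate 1 as lowest for the DNAJB genes (0.796), and replicate 1 as highest for HSP60, which is Hspd1 alone (0.820). Granulosa and immediate early markers were highest in replicate 1 as well, and their part was not tested.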

How the results depend on the processing

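The number of members detected in every naked mole-rat library was 54, and 44 to 55 under the other minimums, totals and replicates left out. The 18 members highest in replicate 1 were 13 to 20 under the alternatives. Under the other totals, TMM factors and DESeq2 size factors, the mean inducible sum was 1512 to 1598 CPM, against 1507 CPM. The constitutive sum was 4044 to 4282 CPM, against 4043 CPM. Ratios of inducible to constitutive genes were rerun only with a replicate left out. Leaving out 1 of 5 values cannot move their mean by 1 SD, so this does not show whether ratios or sums are stable. For the species contrast, TMM factors gave 1 member higher and 1 lower, DESeq2 size factors gave 1 lower, a 2-fold limit gave 8 higher and 4 lower, and a minimum of 10 counts gave 5 higher, where low genes such as Hspb8 enter. Leaving out replicates gave 2 higher throughout and 2 to 3 lower, Dnajc4 being added without replicate 4; without replicate 1, a choice made after the data were seen, Dnajc12, Hspa6, Dnajc18 and Dnajb2 stayed called. In the comparison of O with Y libraries 0 to 4 members were called when a replicate was left out, and 0 without a filter, with RLE factors and with DESeq2. The numbers after the letters are shared (1 and 2), but same-numbered libraries deviated together only weakly (r = 0.04 over 15079 genes), and a replicate block called 0 members and 56 genes, against 0 and 0 without it. Over all genes 66 were called without a filter, 71 by DESeq2 and 4 to 494 with a replicate left out. Counts of genes under about 100 reads limit what can be said of Hspa6 and Dnajc12. The guinea pig value has no replicate.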
